A study of Mus musculus with 10 samples.

Results

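The NMDA receptor subunits are the 7 mouse genes whose products assemble into the NMDA type of glutamate receptor, namely Grin1, Grin2a, Grin2b, Grin2c, Grin2d, Grin3a and Grin3b. They were taken by symbol, and all 7 were found among the 53379 Ensembl genes counted in each of 10 RNA-seq libraries. The libraries came from hippocampal tissue of 5-week-old male mice that carried AAV9-TRE-ChR2-EYFP together with AAV9-c-Fos-tTA, viruses through which the c-Fos promoter marks recently active cells with EYFP for sorting. The aversive group (2 libraries) received 4 foot shocks of 2 s at 1.5 mA, and the appetitive group (2 libraries) met a female for 1 h in a clean home cage. The neutral group (3 libraries) entered the conditioning cage with neither stimulus, and the mock group (3 libraries) stayed in the home cage. The c-Fos promoter can be active in cells other than neurons, so the tag itself names no cell type. The sorted material is called cells in the labels and nuclei in parts of the study's text. The labels give 8 mice pooled for each condition and do not say whether libraries of a condition came from separate pools. The study's methods describe mock as an untagged control of 2 mice, fewer than its 3 libraries, so mock libraries may share animals. The p-values therefore measure only the spread between these libraries, which may be technical. The neutral libraries were labelled total RNA and read as 100 bp pairs with another library kit, whereas all others were labelled polyA RNA and read as single 40 bp reads. Kit and neutral experience therefore cannot be told apart, while the comparisons of appetitive with aversive and of both with mock lie within a single kit. If mock was untagged, the comparisons with mock also differ in tagging and in the number of mice, which cannot be told apart from experience.

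NMDA receptors are cation channels that open when glutamate and a co-agonist, glycine or D-serine, are bound while the membrane is depolarized, and they then admit calcium. They combine the obligatory GluN1 subunit, encoded by Grin1, with GluN2 subunits that bind glutamate (Grin2a to Grin2d) or with GluN3 subunits that bind glycine (Grin3a, Grin3b). In the hippocampus their calcium signal is needed for long-term potentiation at many excitatory synapses and for several forms of memory, which makes them genes of interest in cells tagged during an experience.

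The 7 genes are related in sequence, so it was asked how well a 40-base read can tell them apart in GENCODE M21 transcripts (GRCm38). No run of 40 bases was shared by any pair of the 7 genes over their whole annotated transcripts, so an exact 40-base read of one subunit cannot come from another. Grin2a shared 11.8% of its 40-base runs with 4 other genes, and for each other member that share was at most 0.2%.

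Total counts ran from 16968588 to 67650693 per library, and 3 counts corresponded to between 0.0347 and 0.235 CPM. CPM are counts scaled to a common library total after TMM normalization, which uses trimmed means of log ratios between libraries. Duplicates made by PCR were counted like other reads, so this floor covers counting error only. The libraries held much RNA of cells other than neurons. The 10 neuron markers summed to between 155 and 695 CPM per library, against 7440 to 802235 CPM for 7 oligodendrocyte markers, 463 to 14181 CPM for 8 astrocyte markers and 849 to 133190 CPM for 5 choroid plexus markers. Rbfox3, which defines most neurons, had 2 counts in appetitive replicate 2. Slc17a7, the vesicular glutamate transporter of hippocampal pyramidal cells, had 1 count in each of neutral replicates 1 and 2 and 432 in neutral replicate 3. Snap25, another neuron marker, had 154 CPM (2941 counts) in appetitive replicate 2, above all mock libraries. In neutral libraries it had 15.1 to 24.4 CPM (1310 to 1648 counts), below every other library. Of the neuron list, Syt1 was at 0 in appetitive replicate 2, Nefm in both appetitive libraries and Stmn2 in neutral replicate 1. Replicates were also unlike each other in the aversive group (Spearman rho across tested genes 0.638) and in the appetitive group (0.606), where mock pairs had rho from 0.910 to 0.922. In such sorted bulk samples, fewer cells of a type and less RNA of a gene per cell cannot be told apart.

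The summed level of subunit RNA was highest in the mock and aversive libraries, lower in the appetitive libraries and lowest in the neutral libraries. However, no member passed an adjusted p under 0.05 between any pair of groups in edgeR. DESeq2 called 1 to 5 of the 6 tested members per comparison, where it called 7.76% to 28.3% of all genes. Summed over the 7 genes, mock libraries held 139, 32.5 and 71.7 CPM, aversive libraries 79.6 and 299.5 CPM, appetitive libraries 4.61 and 24.1 CPM, and neutral libraries 3.61, 1.21 and 0.874 CPM. The mock and aversive libraries lay above all appetitive and neutral ones on this sum. Per kb of exon, Grin2c was the highest subunit in 7 of the 10 libraries, Grin2d in 2 (neutral replicates 1 and 3) and Grin2b in 1 (appetitive replicate 1).

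**Figure D1:**
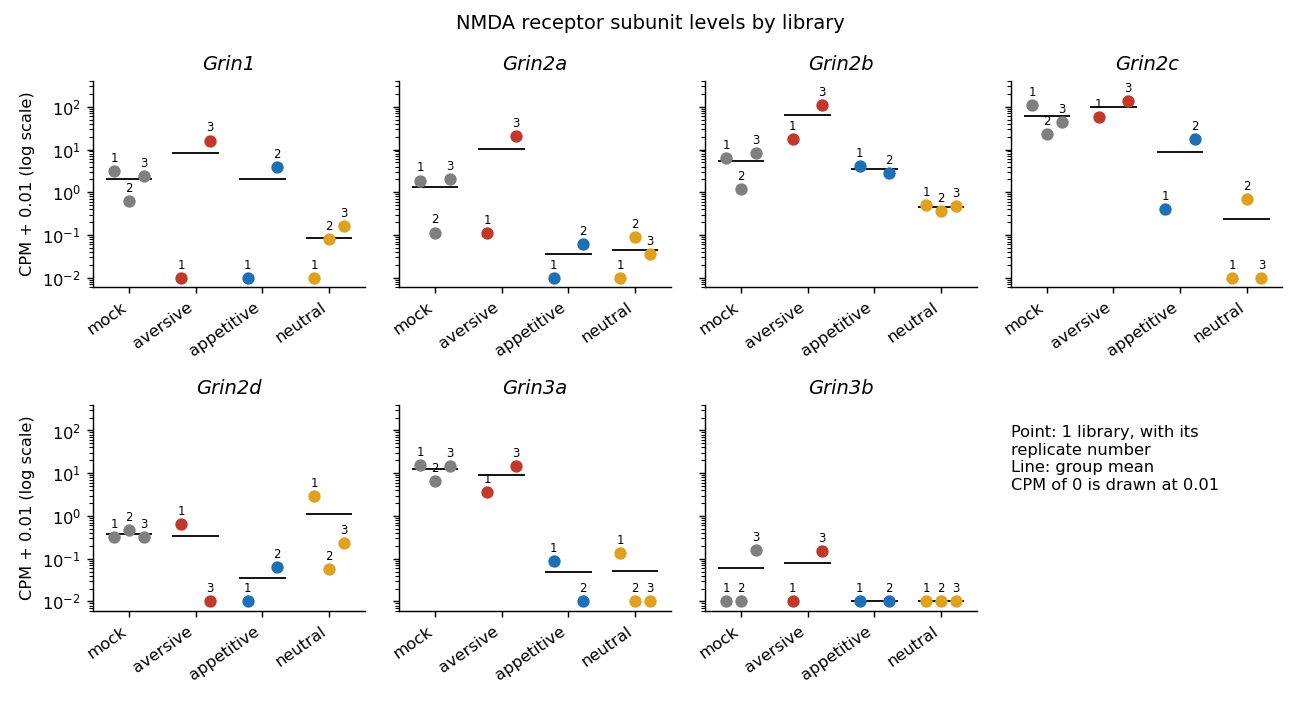
Level of each NMDA receptor subunit by library, as CPM plus 0.01 on a log axis, with 1 point per library, its replicate number above it and a line at the group mean (a CPM of 0 is drawn at 0.01). Grin2c and Grin2b reached 139.9 and 108 CPM in aversive replicate 3, Grin3a stayed at or under 0.126 CPM in all appetitive and neutral libraries, and Grin3b was at 0 in 8 of the 10.

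Positions are given in GRCm38, where Grin3b is on the plus strand and the other 6 genes are on the minus strand. Grin1 (chr2:25291181-25319187) encodes GluN1, without which no NMDA receptor reaches the membrane. It had 78, 12 and 174 counts in mock, 0 and 810 in aversive, 0 and 76 in appetitive, and 0, 6 and 12 in neutral libraries. In CPM these were 3.11, 0.625 and 2.41 in mock, 0 and 16.2 in aversive, 0 and 3.98 in appetitive, and 0, 0.0693 and 0.154 in neutral libraries. These 3 libraries at 0 therefore held no count of the obligatory subunit, although each held counts of other members, and 69.3% of all Grin1 counts came from aversive replicate 3. A count of 0 allows up to 0.150 CPM in aversive replicate 1, 0.235 CPM in appetitive replicate 1 and 0.0473 CPM in neutral replicate 1. The aversive and appetitive groups each spanned the mock range, and neutral libraries lay below every mock library. Neutral against mock was the largest of the 3 contrasts with mock, with a log2 fold change of -4.72 (SE 2.64, edgeR adjusted p = 0.508). Of Grin1 exon bases, 13.5% also belong to the antisense gene Grin1os, and counting without strand could not separate reads there.

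Grin2a (chr16:9567898-9995560) encodes GluN2A, the subunit that joins synaptic receptors of the forebrain as it matures. Its CPM were 1.87, 0.104 and 2.00 in mock, 0.1001 and 20.4 in aversive, 0 and 0.0524 in appetitive, and 0, 0.0808 and 0.0257 in neutral libraries. Only aversive replicate 3, with 1019 counts, and mock replicates 1 and 3, with 47 and 145, held more than 7 counts. Aversive replicate 3 gave 83.2% of all Grin2a counts. The appetitive group had 1 count in total against 1021 in the aversive group, a ratio of 466 between aversive and appetitive with an exact counting interval of 83.4 to 18416. That interval covers counting error alone, and the fit across libraries gave an edgeR adjusted p of 0.210. Against mock the same single count gave a mock to appetitive ratio of 53.0 (9.40 to 2105), with an edgeR adjusted p of 0.267.

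Grin2b (chr6:135713233-136173511) encodes GluN2B, which prevails early in life and carries the docking site for CaMKII. It was counted in all 10 libraries, at 6.33, 1.20 and 8.46 CPM in mock, 17.3 and 108 CPM in aversive, 4.15 and 2.83 CPM in appetitive, and 0.505, 0.346 and 0.475 CPM in neutral libraries. The aversive libraries lay above those of every other group and the neutral libraries below, while appetitive libraries lay within the mock range. The log2 fold change against neutral libraries was 7.14 for the aversive group (SE 1.47, edgeR adjusted p = 0.106) and 2.97 for the appetitive group (SE 1.25, adjusted p = 0.146). Within a single kit, aversive against mock was 3.55 (SE 1.27, adjusted p = 0.473), and appetitive against aversive was -4.17 (SE 1.53, adjusted p = 0.179). Grin2b had the smallest standard error of the members in all 6 comparisons, and none of these differences passed the threshold.

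Grin2b also rested on aversive replicate 3, which gave 80.0% of its counts. Without that library, and with the lone aversive library left assumed to vary like the other groups, the direction was the same, with log2 fold changes of 5.29 against neutral (adjusted p = 0.135) and 1.69 against mock (adjusted p = 0.589), and appetitive against aversive was -2.32 (adjusted p = 0.586). The neuron marker sum was 695 and 501 CPM in the aversive libraries, against 233 to 381 in mock, 686 and 253 in appetitive and 155 to 270 in neutral libraries. Snap25 alone gave 577 of the 686 CPM in appetitive replicate 1 and 422 of the 695 CPM in aversive replicate 1. In neutral replicate 1 it gave 24.4 of the 270 CPM, so the sum does not weigh the same genes in every library. Per 1000 CPM of neuron markers, Grin2b stood at 16.6, 4.85 and 36.2 in mock, 24.9 and 215.5 in aversive, 6.04 and 11.2 in appetitive, and 1.87, 2.23 and 2.71 CPM in neutral libraries. On this ratio the neutral libraries were still the lowest, and aversive replicate 1 fell inside the mock range. The part of neuron content in the Grin2b levels was not tested.

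The ratio of Grin2b to Grin2a within a library does not depend on library scaling and changes in the forebrain with age and activity. As log2 of the counts with a pseudocount of 0.5 it was 1.75, 3.23 and 2.07 in mock, 7.12 and 2.40 in aversive, 6.74 and 5.18 in appetitive, and 6.02, 2.02 and 3.91 in neutral libraries. Grin2b counts exceeded Grin2a counts in all 10 libraries, and both appetitive ratios lay above all mock ratios, with means of 5.96 ± 1.10 (SD, n = 2) and 2.35 ± 0.78 (SD, n = 3). The difference of 3.61 gave p = 0.1 in an exact two-sided permutation test, the smallest p that 2 against 3 libraries allow. The other exact permutation p-values were 0.2 for aversive against mock, 0.7 for aversive against neutral, 0.3 for appetitive against neutral and 1 for appetitive against aversive, where the smallest possible is 0.333. No test of this ratio could reach 0.05, and the appetitive ratios rest on 0 and 1 counts of Grin2a.

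Grin2c (chr11:115249169-115267243) encodes GluN2C, best known from granule cells of the cerebellum and also found in astrocytes of the forebrain. It had the most counts of any member in total, at 111, 23.6 and 43.9 CPM in mock, 57.9 and 139.9 CPM in aversive, 0.391 and 17.2 CPM in appetitive, and 0, 0.670 and 0 CPM in neutral libraries. Mock and aversive libraries overlapped, both lay above the appetitive libraries, and appetitive replicate 1 fell inside the neutral range. Aversive against neutral was 8.76 on the log2 scale (SE 2.44, edgeR adjusted p = 0.152) and neutral against mock was -8.03 (SE 2.33, adjusted p = 0.174). Appetitive against neutral was 5.28 (SE 2.12, adjusted p = 0.133), and this value fell to 0.68 without appetitive replicate 2. Aversive against mock was 0.73 (SE 1.89, adjusted p = 0.929), appetitive against mock -2.75 (SE 2.15, adjusted p = 0.417) and appetitive against aversive -3.49 (SE 2.31, adjusted p = 0.446). All 58 neutral counts of Grin2c were in replicate 2.

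Per kb of exon, Grin2c averaged 11.8 ± 9.10 CPM (SD, n = 3) in mock and 19.6 ± 11.5 (n = 2) in aversive libraries. Grin2b, with nearly as many CPM in aversive replicate 3 but far more exon, averaged 0.215 ± 0.150 and 2.52 ± 2.58 CPM per kb in the same groups. Grin1, which every receptor needs, averaged 0.211 ± 0.132 and 0.837 ± 1.18 CPM per kb. Grin2c thus made up 81.6% to 91.6% of the summed level per kb in mock libraries, 91.3% and 76.8% in aversive libraries and 30.9% and 86.5% in appetitive libraries. In neutral libraries its share was 0%, 80.3% and 0%. These shares rest on 59 subunit counts in appetitive replicate 1 and on 68 to 229 in the neutral libraries.

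**Figure D2:**
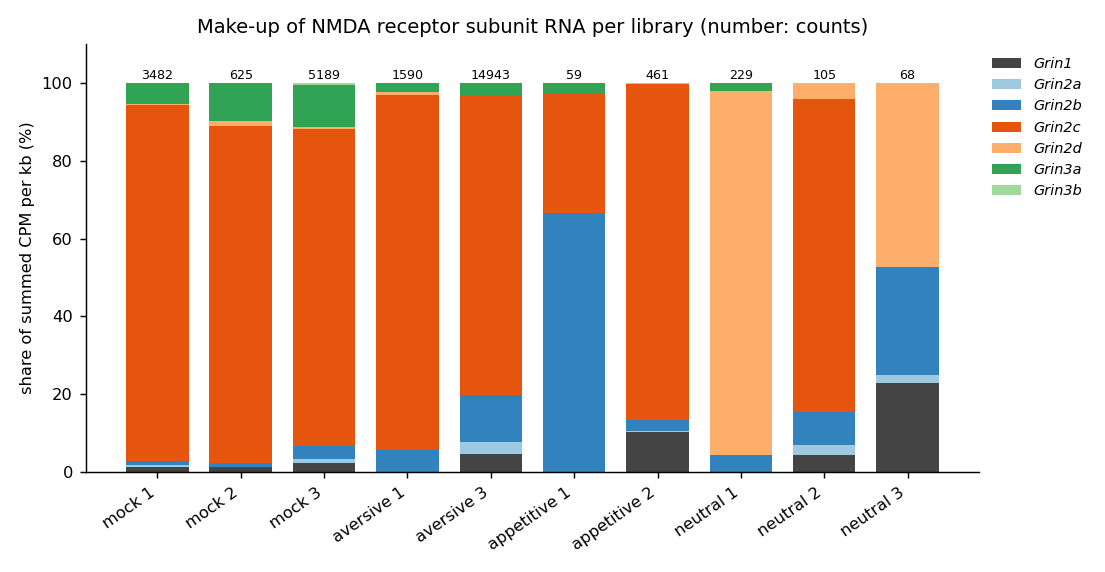
Share of each subunit in the summed CPM per kb of exon (percent, stacked bars from 0 to 100), 1 bar per library, with the summed subunit counts printed above each bar. Grin2c takes 76.8% or more of the bar in all mock and aversive libraries, in appetitive replicate 2 and in neutral replicate 2, whereas Grin2d takes 93.6% in neutral replicate 1.

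Astrocyte markers were lowest in the neutral libraries. All 8 were detected in every library except Aqp4, the astrocyte water channel, which was at 0 in neutral replicate 1, and their sum was 4439 to 14181 CPM in mock, 5203 and 5578 in aversive, 2613 and 6328 in appetitive, and 463 to 465 CPM in neutral libraries. Aqp4 itself had 582.7, 141.8 and 257.5 CPM in mock libraries and 0, 0.231 and 13.3 CPM in neutral libraries. Per 1000 CPM of astrocyte markers, Grin2c stood at 7.84, 3.59 and 9.89 in mock, 10.4 and 26.9 in aversive, 0.0618 and 6.60 in appetitive, and 0, 1.44 and 0 CPM in neutral libraries. Appetitive replicate 1 had 6328 CPM of astrocyte markers with 5 counts of Grin2c, so the gene and the marker sum parted in that library. Single markers differed there. Aldoc, at 2235 CPM, lay within the mock range, while Slc1a3, at 447.7 CPM, and Aqp4, at 117.1 CPM, lay below all mock and aversive libraries. The part of astrocyte content in the Grin2c levels was not tested.

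**Figure D3:**
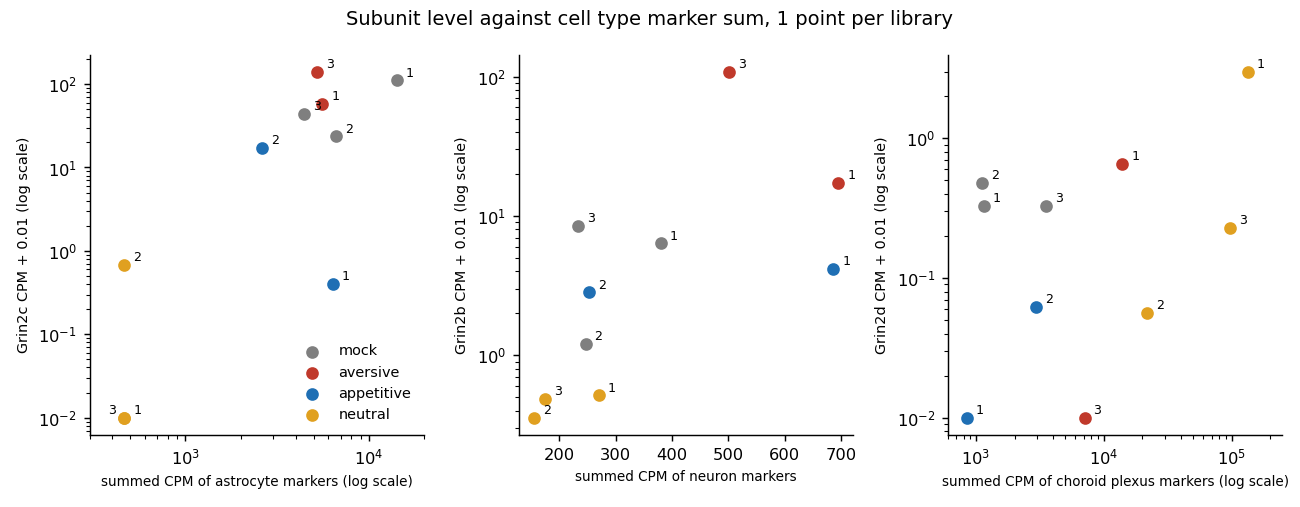
Grin2c against the sum of 8 astrocyte markers, Grin2b against 10 neuron markers and Grin2d against 5 choroid plexus markers, with 1 numbered point per library coloured by group (vertical log axes in CPM plus 0.01). Neutral libraries have the lowest astrocyte sums in the first panel and the lowest Grin2b in the second, and neutral replicate 1 is the highest point on both axes of the third, at 2.98 CPM of Grin2d and 133190 CPM of markers.

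Grin2d (chr7:45831883-45878378) encodes GluN2D, known from interneurons and from early development. It had 8, 9 and 23 counts in mock, 13 and 0 in aversive, 0 and 1 in appetitive, and 189, 4 and 17 in neutral libraries. In CPM it was the only member whose highest library was a neutral one, at 2.98 CPM in replicate 1 against 0.0462 and 0.218 CPM in the other neutral libraries and 0.318 to 0.469 CPM in mock. The neutral range spanned the mock values, and neutral against mock was 1.55 on the log2 scale (SE 1.99, edgeR adjusted p = 0.860). Without neutral replicate 1 this value was -1.47, so its direction rested on that library. Neutral replicate 1 also had the highest choroid plexus sum, 133190 CPM, and neutral replicate 3, with 97283 CPM, held 17 counts of Grin2d. Interneuron markers summed to 8.83 CPM in neutral replicate 1, with Gad1, Gad2 and Slc32a1, the genes that define GABA cells, at 0. The part of choroid plexus or interneuron content in the Grin2d level was not tested. The appetitive group held 1 count, and the neutral to appetitive ratio was 29.4 with a counting interval of 5.22 to 1166 (edgeR adjusted p = 0.248). Of Grin2d exon bases, 9.66% are shared with the antisense gene Gm45441.

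Grin3a (chr4:49661611-49845744) encodes GluN3A, which lowers calcium entry through the receptor and is high in the young brain. Its counts were 399, 126 and 1046 in mock, 72 and 739 in aversive, 1 and 0 in appetitive, and 8, 0 and 0 in neutral libraries. The corresponding levels were 15.9, 6.56 and 14.5 CPM in mock, 3.60 and 14.8 CPM in aversive, 0.0782 and 0 CPM in appetitive, and 0.126, 0 and 0 CPM in neutral libraries. Mock and aversive libraries overlapped and all 5 lay above all appetitive and neutral libraries. The ratio of mock to appetitive was 429 with an exact counting interval of 76.9 to 16968, and that of aversive to appetitive was 370 (66.2 to 14632). The fit gave edgeR adjusted p-values of 0.143 and 0.181 for these comparisons, 0.163 for aversive against neutral (log2 fold change 7.72, SE 2.33) and 0.174 for neutral against mock (-8.13, SE 2.33). Grin3a had the largest share of mock CPM per kb after Grin2c, from 5.37% to 11.0%. Aversive against mock was -0.42 (SE 1.92, adjusted p = 0.962). Grin3a drew 30.9% of its counts from aversive replicate 3, whose level lay within the mock range, while aversive replicate 1 lay below it. The gene holds Ppp3r2 within an intron on the same strand, with no shared exon base.

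Grin3b (chr10:79970715-79977190) encodes GluN3B, known from motor neurons. It had 11 counts in mock replicate 3, 7 in aversive replicate 3 and 0 in the other 8 libraries, and did not pass the filter on low counts. No fold is given, since appetitive and neutral libraries were all at 0, and 32.1% of its exon bases overlap Tmem259 on the other strand, whose reads could not be separated.

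The study asked whether cells tagged by an aversive or appetitive experience differ from those tagged in a neutral one. It called genes with DESeq2, at a stricter adjusted p than here and with a minimum fold difference. Its gene set analysis placed ionotropic glutamate receptor activity among the top raised sets of both groups against neutral. Aversive libraries had higher fitted values than neutral for 5 of 6 tested members (all but Grin2d), with a median log2 fold change of 7.43 against -0.15 over all tested genes. None of the 6 passed an adjusted p under 0.05 in edgeR's quasi-likelihood test, where 0.0405% of all genes did. At an unadjusted p under 0.05 there were 5 members (19.1% of all genes), 4 members had groups that did not overlap (33.7% of all genes), and DESeq2's Wald test called 5 at an adjusted p under 0.05 (15.8% of all genes). Those 5 were Grin1, Grin2a, Grin2b, Grin2c and Grin3a, with DESeq2 adjusted p-values of 0.0396, 0.000805, 3.95e-09, 0.000488 and 0.000301. Grin1 and Grin2a in the aversive group rest on aversive replicate 3, which held 1019 of the 1021 aversive counts of Grin2a. Without it the aversive group held 0 counts of Grin1, and the fitted log2 fold change of Grin2a was 1.41.

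Appetitive libraries were split against neutral, with 3 fitted values higher (Grin1, Grin2b, Grin2c) and 3 lower, and the sign of Grin3a, at -0.20, turned with DESeq2's size factors. The median was 1.39 against -0.91 for all genes. None of the 6 members passed in edgeR (6.17% of all genes did), 2 had an unadjusted p under 0.05 (29.3%), 1 had groups that did not overlap (38.6%), namely Grin2b, and DESeq2 called 2 (28.3%), Grin2b and Grin2c. For Grin2a and Grin3a, neutral and appetitive libraries were both near the floor, with 9 against 1 and 8 against 1 counts. Their neutral to appetitive ratios of 1.26 (0.174 to 55.2) and 1.12 (0.150 to 49.7) show that a difference was not detectable at this depth.

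Appetitive against aversive libraries, made with the same kit, had negative fitted values for all 6 tested members, with a median of -3.83 against -0.48 for all genes. This direction was the same under each of the 3 other scalings of the libraries, but turned for Grin1 without aversive replicate 3 and for Grin2d without aversive replicate 1. In edgeR 0 of 6 passed (1.8% of all genes), with 3 at an unadjusted p under 0.05 (20%) and 4 with groups apart (28.4%). DESeq2 called 3 (23.3% of all genes), Grin2a, Grin2b and Grin3a, with adjusted p-values of 0.00851, 0.00684 and 0.00529.

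Against the home cage, aversive libraries had higher fitted values for 4 of 6 members and lower ones for Grin2d and Grin3a, with a median of 1.36 against -0.13 for all genes. In edgeR 0 of 6 passed, as did 0% of all genes, and 1 member had an unadjusted p under 0.05 (9.96% of all genes), 1 had groups apart (36.1%) and 1 was called by DESeq2 (8.09%). In each case that member was Grin2b, with a DESeq2 adjusted p of 0.0146. The fitted values of the other members ran from -0.42 for Grin3a to 2.95 for Grin2a, and that of Grin2c turned to -0.08 when libraries were scaled on the neuron markers.

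Appetitive libraries had negative fitted values against mock for all 6 members under TMM scaling, with a median of -3.16, but the median of all genes was itself -1.45, and Grin1, at -0.04, turned positive with DESeq2's size factors and with scaling on neuron markers. None passed in edgeR (1.98% of all genes did), 1 had an unadjusted p under 0.05 (23.8%), 4 had groups apart (48.7%), and DESeq2 called 1 (26.1%). The member called was Grin3a, with a DESeq2 adjusted p of 0.00165.

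Neutral against mock, which also sets kit against kit, gave negative fitted values for 5 of 6 members, with a median of -4.91 against 0.08 for all genes. None passed in edgeR (0.0861% of all genes did), 4 had an unadjusted p under 0.05 (13.5%), 5 had groups apart (32%), and DESeq2 called 3 (7.76%), Grin2b, Grin2c and Grin3a. The single positive value was that of Grin2d. Each group enters 3 of the 6 comparisons, so their values are not independent of one another.

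**Figure D4:**
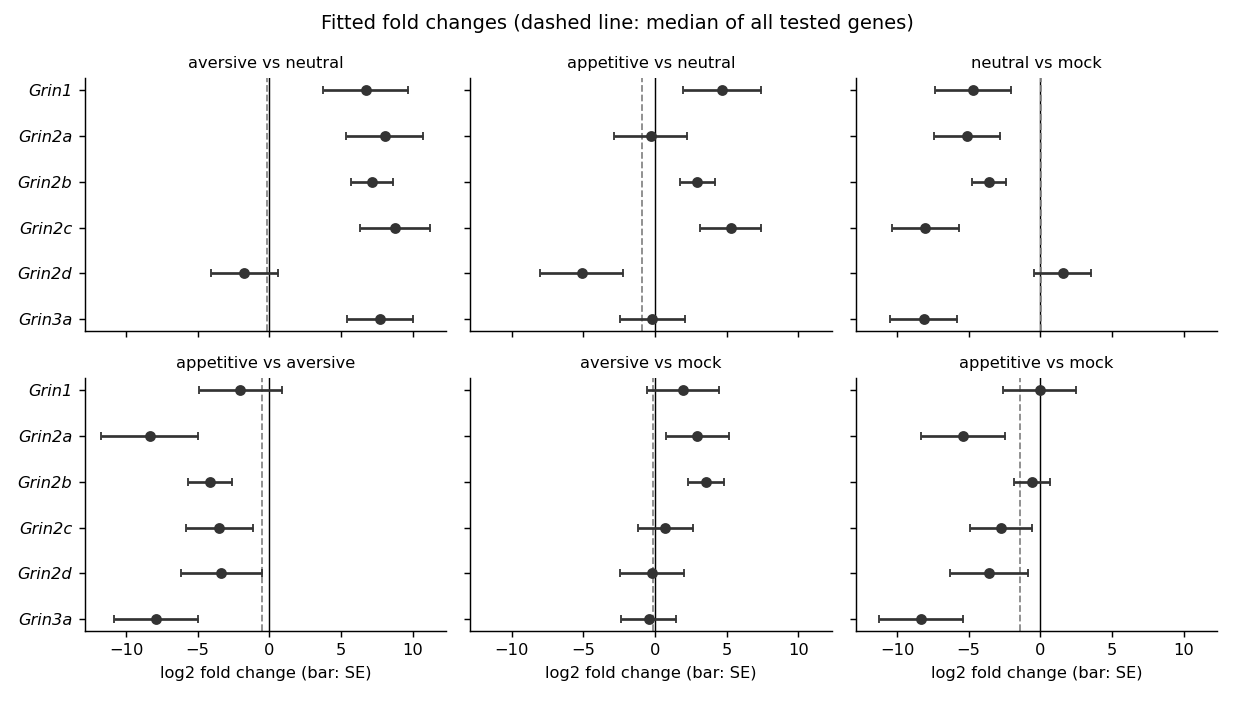
Fitted log2 fold changes with standard errors for the 6 tested members in the 6 comparisons, with a solid line at 0 and a dashed line at the median of all tested genes. Values run from -8.35 (Grin2a, appetitive against aversive) to 8.76 (Grin2c, aversive against neutral), and no point passed an adjusted p under 0.05 in edgeR. Without aversive replicate 3 the first of these values was -1.72, and without neutral replicate 2, which leaves the neutral group at 0 counts, the other was 15.0.

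Genes that act with the receptor were read from a list of 45 scaffolds, kinases, phosphatases, carriers and co-agonist enzymes, of which 44 were tested. In aversive against neutral libraries 30 had higher and 14 lower fitted values, with a median log2 fold change of 0.52, and 0 were called. In appetitive against neutral there were 21 higher and 23 lower, with a median of -0.71 and 1 gene called, Dlg3, which was lower. In appetitive against aversive there were 13 higher and 31 lower (median -1.16, 0 called), in aversive against mock 34 and 10 (median 0.65, 0 called), in appetitive against mock 18 and 26 (median -0.62, 0 called) and in neutral against mock 21 and 23 (median -0.15, 0 called). The genes at an unadjusted p under 0.05 numbered 9, 15, 8, 2, 12 and 7 of 44 in the same order. Over all genes the shares at that threshold were 19.1%, 29.3%, 20%, 9.96%, 23.8% and 13.5%. The share of partner genes called in appetitive against neutral, 1 of 44, was below the 6.17% of all genes.

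Dlg3 encodes SAP102, a scaffold that carries NMDA receptors to young synapses. It had 16.9, 8.75 and 22.4 CPM in mock, 66.8 and 29.2 CPM in aversive, 32.1, 27.9 and 9.94 CPM in neutral, and 0.469 and 0.0524 CPM in appetitive libraries, which held 6 and 1 counts. Both appetitive libraries lay below all others, and appetitive against neutral was -6.51 on the log2 scale (SE 1.60, edgeR adjusted p = 0.0401). Appetitive against aversive was -7.55 (SE 1.70, adjusted p = 0.0524). Dlg4, which encodes the scaffold PSD-95, had group means of 4.29 ± 2.15 CPM in mock (SD, n = 3), 2.21 ± 1.07 in aversive (n = 2), 0.926 ± 1.013 in appetitive (n = 2) and 4.86 ± 1.48 CPM in neutral libraries (n = 3), with adjusted p-values from 0.344 to 0.986.

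Camk2a, the kinase that NMDA receptor calcium activates and that docks on GluN2B, had 68.6, 9.53 and 69.9 CPM in mock, 48.4 and 144 in aversive, 106 and 0.262 in appetitive, and 9.69, 6.48 and 12.5 CPM in neutral libraries. The appetitive libraries held the lowest of all 10 values and the highest but for that of aversive replicate 3, and the smallest adjusted p was 0.281, in aversive against neutral. Srr encodes serine racemase, which makes the co-agonist D-serine. It had 33.3, 25.9 and 21.8 CPM in mock and 24.5, 24.9 and 18.0 CPM in neutral libraries, against 0 and 1.74 CPM in aversive libraries and 1 count in each appetitive library. Mock and neutral libraries overlapped, and both lay above the aversive and appetitive libraries, a pattern that no tested subunit shared. The mock to appetitive ratio was 398 with a counting interval of 110 to 3286, and the neutral to appetitive ratio was 358 (99.04 to 2956). Srr did not pass the edgeR threshold in appetitive against neutral (adjusted p = 0.0509), appetitive against mock (0.0722), aversive against neutral (0.216) or aversive against mock (0.473).

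The 11 other ionotropic glutamate receptor subunits (AMPA, kainate and delta) were all tested. Their median log2 fold changes were 4.07 in aversive against neutral, 3.56 in appetitive against neutral and -4.95 in neutral against mock, and 1.07, -0.91 and -0.12 in appetitive against aversive, aversive against mock and appetitive against mock. Of these comparisons, appetitive against neutral had 2 of 11 genes called, both higher, where 6.17% of all genes were called. The others had 0 called, where 0% to 1.98% of all genes were called. At an unadjusted p under 0.05 there were 4 of 11 in aversive against neutral (19.1% of all genes) and 4 in appetitive against neutral (29.3%), all higher. Neutral against mock had 5 of 11, all lower (13.5%). Appetitive against aversive had 2 (20%), aversive against mock 0 (9.96%) and appetitive against mock 1 (23.8%). The medians of the NMDA receptor subunits for appetitive against neutral and against aversive were 1.39 and -3.83, and the difference between the families was not tested.

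Among the members, the log2 CPM of Grin1, Grin2a, Grin2b, Grin2c and Grin3a varied together over the 10 libraries, with Pearson r from 0.506 (Grin1 and Grin3a) to 0.803 (Grin1 and Grin2a). Grin2d stood apart, with r from -0.359 to 0.161 against them. These points share library depth, kit and cell content, and r is given as a description. The same measure was taken against 15059 protein-coding genes to find the 3 most like each member. For Grin1 these were Ccnjl, Il1rapl1 and Gprin1 (r from 0.964 to 0.968), for Grin2a BC030499, Cntnap5a and Psrc1 (0.976 to 0.980), and for Grin2b Ctsf, Prr15 and Sfxn5 (0.903 to 0.928). For Grin2c they were Lrrc4c, Arrb1 and Gnao1 (0.961 to 0.964), for Grin2d Nhs, Zfp970 and Epcam (0.895 to 0.930), and for Grin3a Dlgap2, Adcy8 and Acat3 (0.972 to 0.976). Dlgap2, a postsynaptic scaffold gene, was the only one of these 18 that was also on the partner list.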

How the data were processed

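RNA-seq libraries were grouped by their sample labels. The authors aligned the first 40 bases of every read with STAR (mm10), assigned reads to Ensembl genes (GRCm38) by featureCounts, ignoring strand, and deposited the raw counts. Library total is therefore the only depth given, and the reads were not remapped here. Symbols and positions came from GENCODE M21, to which 53274 of 53379 identifiers matched.

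The counts were fitted with edgeR 4.0.16 (R 4.3.3) as 1 quasi-likelihood model of 4 groups and 10 libraries, with TMM scaling (factors 0.48 to 1.45), filterByExpr (19754 genes kept) and Benjamini-Hochberg adjustment over these genes. Genes were called at an adjusted p under 0.05. The common dispersion of 1.49 is a coefficient of variation of 122% between replicates. Standard errors were derived from the F statistics, tests are two-sided, and counting intervals are exact at 95%. Fitted folds of a group with 1 to 3 counts depend on a prior count, so ratios of counts are given for it. The Grin2b to Grin2a ratio was compared by an exact permutation test in scipy 1.17.1. Likeness used log2 CPM with a prior count of 2.

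The members and all gene lists were chosen with earlier results of these data known. The rule for named genes took all 7 members, the 3 genes most like each, Dlg4, Camk2a, Srr and the called partner genes with the smallest p. Gria and other subunits were given as counts and medians. Alternatives were DESeq2 1.42.0, DESeq2's size factors, library size alone or 10 neuron markers as scaling, leaving out the filter, a stricter filter of 10 counts or more in each library, groups fitted alone, a replicate block, and each library left out. The steps were tested on simulated data. The list of markers for oligodendrocyte precursors summed to 40.6 to 451 CPM per library, microglia to 35.7 to 8367, endothelium to 104 to 2735, pyramidal neurons to 11.5 to 515, interneurons to 0.0524 to 95.4 and ependyma to 0.0782 to 282 CPM. Sequences of the members are not reported here.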

Additional observations from a re-analysis of the deposited data

How the results depend on the processing

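Counts of members called in edgeR were 0 in all 6 comparisons. DESeq2's Wald test called 5 in aversive against neutral (15.8% of all genes) and 2 in appetitive against neutral (28.3%). It called 3 in appetitive against aversive (23.3%). Against mock it called 1 for aversive (8.09%), 1 for appetitive (26.1%) and 3 for neutral libraries (7.76%). With no filter the counts were 2 in aversive against neutral, 1 in appetitive against neutral and 1 in neutral against mock, where 863, 2535 and 520 of 35266 genes were called. With at least 10 counts in every library, where Grin2b alone was tested, 1 was called in aversive against neutral (41 of 4661 genes), and with groups fitted alone 1 (Grin3a) in appetitive against mock (3585 of 16471 genes). Leaving out each library gave 0 to 1 in aversive against neutral (Grin2b, without appetitive replicate 1 or 2, where 453 of 23908 and 450 of 23716 genes were called) and 0 to 1 in appetitive against neutral (Grin2c, without neutral replicate 2, where 777 of 18854 genes were called), and 0 elsewhere. A group left with 1 library was assumed to vary like the others. The causes were not tested, other than that fewer genes are tested under the stricter filter.

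With the replicate number as a block the counts were 0 in all 6 comparisons. Deviations of same-numbered libraries were weakly correlated at most (3 of 12 correlations over 0.1, from -0.04 to 0.16). Pairs with different numbers were not set beside them, so batches shared by number were not excluded. The study's reporting summary says that RNA-seq was repeated 3 times with control of batch effects, and does not name the batches. In the main fit the numbers served as names only. Over all tested genes, the block lowered the calls in appetitive against neutral from 1218 to 73.

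Log2 fold changes turned in sign under another scaling or fit for Grin3a in appetitive against neutral (0.045 with DESeq2's size factors, 0.15 with the replicate block), Grin2a there (0.092 with DESeq2, 0.030 with the block), Grin2c in aversive against mock (-0.080 on neuron markers), Grin1 in aversive against mock (-2.04 with the block), Grin1 in appetitive against mock (0.16 with DESeq2's size factors, on neuron markers and with DESeq2, 0.047 with groups fitted alone) and Grin2b in appetitive against mock (0.14 with the block). None of these passed a threshold. Scaling on neuron markers moved the median of all genes by up to -1.61 (aversive against neutral). A scaling shifts all genes of a comparison nearly alike, so the median of the members relative to all genes could hardly change. That difference was between 7.53 and 7.90 there over the 4 scalings, and between -3.36 and -3.11 in appetitive against aversive. It therefore does not test the part of neuron content.

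Leaving out libraries turned further signs. Some of the ranges below end in a fold of a group left with 0 counts, such as Grin1 in the aversive group without replicate 3. The size of such a fold depends on a prior count and is not a measured effect. In aversive against neutral, Grin1 ranged from -4.77 to 7.75 and Grin2d from -8.62 to 1.26. In appetitive against neutral, Grin1 ranged from -4.87 to 5.72, Grin3a from -4.00 to 3.71 and Grin2a from -3.87 to 0.98. In appetitive against aversive, Grin1 ranged from -11.6 to 9.45 and Grin2d from -6.98 to 3.46. In aversive against mock, the ranges were -9.50 to 2.88 for Grin1, -3.70 to 3.84 for Grin2a, -0.045 to 1.56 for Grin2c, -7.22 to 0.81 for Grin2d and -1.78 to 0.17 for Grin3a. In appetitive against mock, Grin1 ranged from -9.70 to 0.73, and in neutral against mock Grin2d from -1.47 to 2.11. The difference of the Grin2b to Grin2a log2 ratio ranged from -1.58 to 3.13 in aversive against neutral and from -1.15 to 3.56 in appetitive against aversive.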
